A study of Mus musculus with 22 samples.

Results

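Pdia6 and 9 other genes of protein folding in the endoplasmic reticulum (Pdia3, Pdia4, P4hb, Hspa5, Hsp90b1, Calr, Canx, Xbp1 and Sdf2l1) were followed in whole blood of a mouse model of spinocerebellar ataxia type 3 (SCA3). The genes were taken by symbol, and all 10 were found among the 9850 genes of the blood count table. Pdia6 was chosen from the comparison of SCA3 with wild-type mice at 17.5 months, so its values in every comparison that uses those samples are described without a test, and the question put to the data was whether its partners followed it over the 4 groups. RNA was sequenced from 22 tail blood samples of 15 untreated male mice, 7 wild-type C57BL/6 mice and 8 hemizygous MJD84.2 SCA3 mice. At 9 months (39 to 42 weeks) the samples came from 6 wild-type and 5 SCA3 mice, and at 17.5 months (74 to 77 weeks) from 6 wild-type and 5 SCA3 mice. Of these animals, 5 wild-type and 2 SCA3 mice gave blood at both ages. The MJD84.2 line carries the full human ataxin-3 gene with an expanded CAG repeat under its own human promoter, next to the mouse's own gene, and all mice came from crosses of hemizygous SCA3 with wild-type animals. Mouse numbers below are 1 to 7 for wild-type and 8 to 15 for SCA3 mice.

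Proteins that are secreted or sit in membranes fold in the endoplasmic reticulum. Hspa5 (BiP, an Hsp70 chaperone) and Hsp90b1 (GRP94, the Hsp90 of this compartment) hold unfolded chains, the lectins Calr and Canx hold chains that carry a trimmed sugar, and disulfide isomerases such as Pdia6, Pdia3, Pdia4 and P4hb form and rearrange the disulfide bonds. When unfolded protein builds up, the unfolded protein response raises the transcription of many of these genes through Atf6 and Xbp1, and in blood this machinery is most abundant in antibody-secreting cells of the B lineage.

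A sequence that these factors are known to read, the endoplasmic reticulum stress element, was looked up in the promoters. The element is not independent of the choice of genes, many of which these factors raise, and its counts below are a description. Its letters (CCAAT, then 9 bases of any kind, then CCACG) were searched on both strands, with no mismatch, in windows of 300 bases that run from 250 bases before to 50 bases after each RefSeq start site (GRCm38.p6). All 10 genes had a window. The element was found in 5 of them, Pdia6, Hspa5, Hsp90b1, Calr and Canx, against 39 of all 32851 windows (0.119%) and 13 of the 8008 genes of the blood table that had a window (0.162%). Hsp90b1 held it at 2 places. The stretches are shown with 20 bases on either side, read on the strand that spells CCAAT first, with the fixed letters of the element in capitals.
Pdia6, chr12:17266471-17266529, + strand: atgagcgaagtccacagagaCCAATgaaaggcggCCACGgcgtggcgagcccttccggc
Hspa5, chr2:34772005-34772063, + strand: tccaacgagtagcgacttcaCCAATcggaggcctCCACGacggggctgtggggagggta
Hsp90b1, chr10:86705618-86705676, - strand: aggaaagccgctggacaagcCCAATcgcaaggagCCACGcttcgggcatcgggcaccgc
Hsp90b1, chr10:86705513-86705571, + strand: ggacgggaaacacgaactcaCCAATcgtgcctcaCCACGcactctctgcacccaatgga
Calr, chr8:84847055-84847113, + strand: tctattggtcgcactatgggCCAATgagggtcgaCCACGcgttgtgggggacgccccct
Canx, chr11:50325780-50325838, - strand: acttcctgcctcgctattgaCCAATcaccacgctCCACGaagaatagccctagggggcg
The element began 98 bases before the start site in Pdia6, 65 bases before it in Hspa5 and 145 bases before it in Canx. The 9 bases between its arms had no common sequence. These exact letters were not in the windows of Pdia3, Pdia4, P4hb, Xbp1 and Sdf2l1. Neither the related element made of ATTGG, any base and CCACG (0.037% of windows) nor the letters TGACGTGG read by Xbp1 and Atf6 (0.676% of windows) were in the window of any of the 10 genes.

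Total counts were 21898928 to 44390286 per sample, and the 10 genes had 159 to 19413 counts each in a sample, and their counting error on the log2 scale was 2.86% to 26.6% of the SD between mice of a group, except for Sdf2l1 (15.8% to 60.02%). Per length, as counts over the library total and the length of the longest transcript (RPKM, mean ± SD over the 22 samples), Calr was the most abundant at 147 ± 35.7 and Sdf2l1 the least at 11.2 ± 3.73. Between them came Pdia3 at 96.9 ± 16.8, Hsp90b1 at 82.4 ± 21.8, Hspa5 at 75.3 ± 14.5, Xbp1 at 56.0 ± 12.6, P4hb at 53.1 ± 11.1, Canx at 40.9 ± 7.93, Pdia6 at 39.5 ± 9.88 and Pdia4 at 33.5 ± 8.13. The neighbours Pdia3 and Hsp90b1, Hsp90b1 and Hspa5, Xbp1 and P4hb, Canx and Pdia6, and Pdia6 and Pdia4 differed by less than the SD of either. Calr exceeded Pdia3, and Pdia4 exceeded Sdf2l1, in 22 of 22 samples.

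Some features of the whole data set bear on these genes. Libraries differed in how counts depended on the GC content of the transcript, and the levels below are log2 CPM (the count as a share of the library total) corrected for it, with uncorrected values where the direction differs. The paper reports that SCA3 blood samples of the older age had significantly lower average GC content of reads. It reports the same for the bias of reads between the ends of transcripts. Both features thus went with genotype. The bias between transcript ends was not corrected here, and its part in the differences between genotypes was not tested. Libraries were numbered group by group, so neither age nor genotype can be told apart from library order. RNA integrity numbers (RIN), known for 21 of 22 samples, were 7.0 to 7.9 and 6.1 to 7.2 in wild-type and SCA3 mice at 9 months and 6.2 to 7.1 and 5.2 to 7.2 at 17.5 months. The 9-month library of SCA3 mouse 9 changed calls in the comparisons of age when it was left out, and its values are given there.

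At 17.5 months, Pdia6 and most of its partners had lower mean levels in SCA3 than in wild-type mice, and no partner passed the test over all genes. Because whole blood was sequenced, fewer cells of a type and less RNA per cell cannot be told apart. Corrected Pdia6 levels were 6.18, 6.34, 6.39, 6.32 and 6.02 in the 5 SCA3 mice, against a lowest of 6.47, a median of 6.71 and a highest of 6.98 in the 6 wild-type mice. The groups did not overlap, and every SCA3 sample lay below every wild-type sample. The difference in log2 level was -0.47 ± 0.10 (SE), or 0.723-fold, in a refit of the comparison the gene was chosen from. The paper's own fit, which led to the choice, gave a larger decrease. Without GC correction, on a log2 CPM scale with TMM library sizes, the groups did not overlap either, at 6.02 to 6.36 in SCA3 and 6.45 to 6.89 in wild-type mice. Scaled by the library total alone they did, at 53.0 to 87.9 and 70.3 to 144 CPM. The paper also measured blood RNA by qPCR, with primers for Pdia6 among others. It reports significant changes for Scrib and Atp13a2, and a trend for the other genes tested.

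Among the other disulfide isomerases, Pdia4 (ERp72) had the pattern nearest to Pdia6. Its corrected log2 levels were 5.83, 6.10, 6.13, 6.25 and 6.14 in SCA3 mice and 6.25 at the lowest, 6.50 at the median and 6.80 at the highest in wild-type mice. The groups met at 6.25 without overlapping. Without GC correction they overlapped, at 5.86 to 6.29 in SCA3 and 6.26 to 6.70 in wild-type mice. The corrected difference was -0.41 ± 0.14 (adjusted p = 0.13). This and every adjusted p of a gene below is from edgeR's quasi-likelihood test and was adjusted after Benjamini and Hochberg for the 9850 genes tested. Pdia3 (ERp57, which works with the lectins on glycoproteins) had 7.86 to 8.24 in SCA3 and 7.94 to 8.43 in wild-type mice, and the difference of -0.11 ± 0.13 was smaller than its error (adjusted p = 0.683). P4hb, the abundant isomerase that is also a subunit of prolyl hydroxylase, differed by -0.09 ± 0.11 (adjusted p = 0.686), with overlapping groups.

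Of the lectins, Calr had the largest difference of any partner and Canx a smaller one. Calr had 8.39, 8.12, 8.18, 8.21 and 7.80 in SCA3 mice, against 8.30 at the lowest, 8.51 at the median and 8.98 at the highest in wild-type mice. SCA3 mouse 8 alone lay inside the wild-type range, and the difference was -0.44 ± 0.15 (adjusted p = 0.132). Canx, the membrane-bound lectin, had 7.55, 7.38, 7.15, 7.34 and 7.16 in SCA3 mice and 7.41 to 7.93 in wild-type mice, a difference of -0.29 ± 0.14 (adjusted p = 0.26). For both lectins all 5 SCA3 samples were under the wild-type mean.

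Of the chaperones, Hsp90b1 had 7.68, 7.94, 7.70, 8.07 and 7.67 in SCA3 mice and 7.92 to 8.61 in wild-type mice. The ranges overlapped, with a difference of -0.39 ± 0.20 (adjusted p = 0.31). Hspa5, the central chaperone and sensor of unfolded chains, had 7.73 to 8.17 in SCA3 and 7.89 to 8.62 in wild-type mice, a difference of -0.25 ± 0.15 (adjusted p = 0.352). Sdf2l1, a small co-chaperone found in complexes with Hspa5, and Xbp1, the transcription factor of the response, had differences of -0.09 ± 0.19 (adjusted p = 0.84) and 0.00 ± 0.16 (adjusted p = 0.996), both smaller than their errors.

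**Figure D1:**
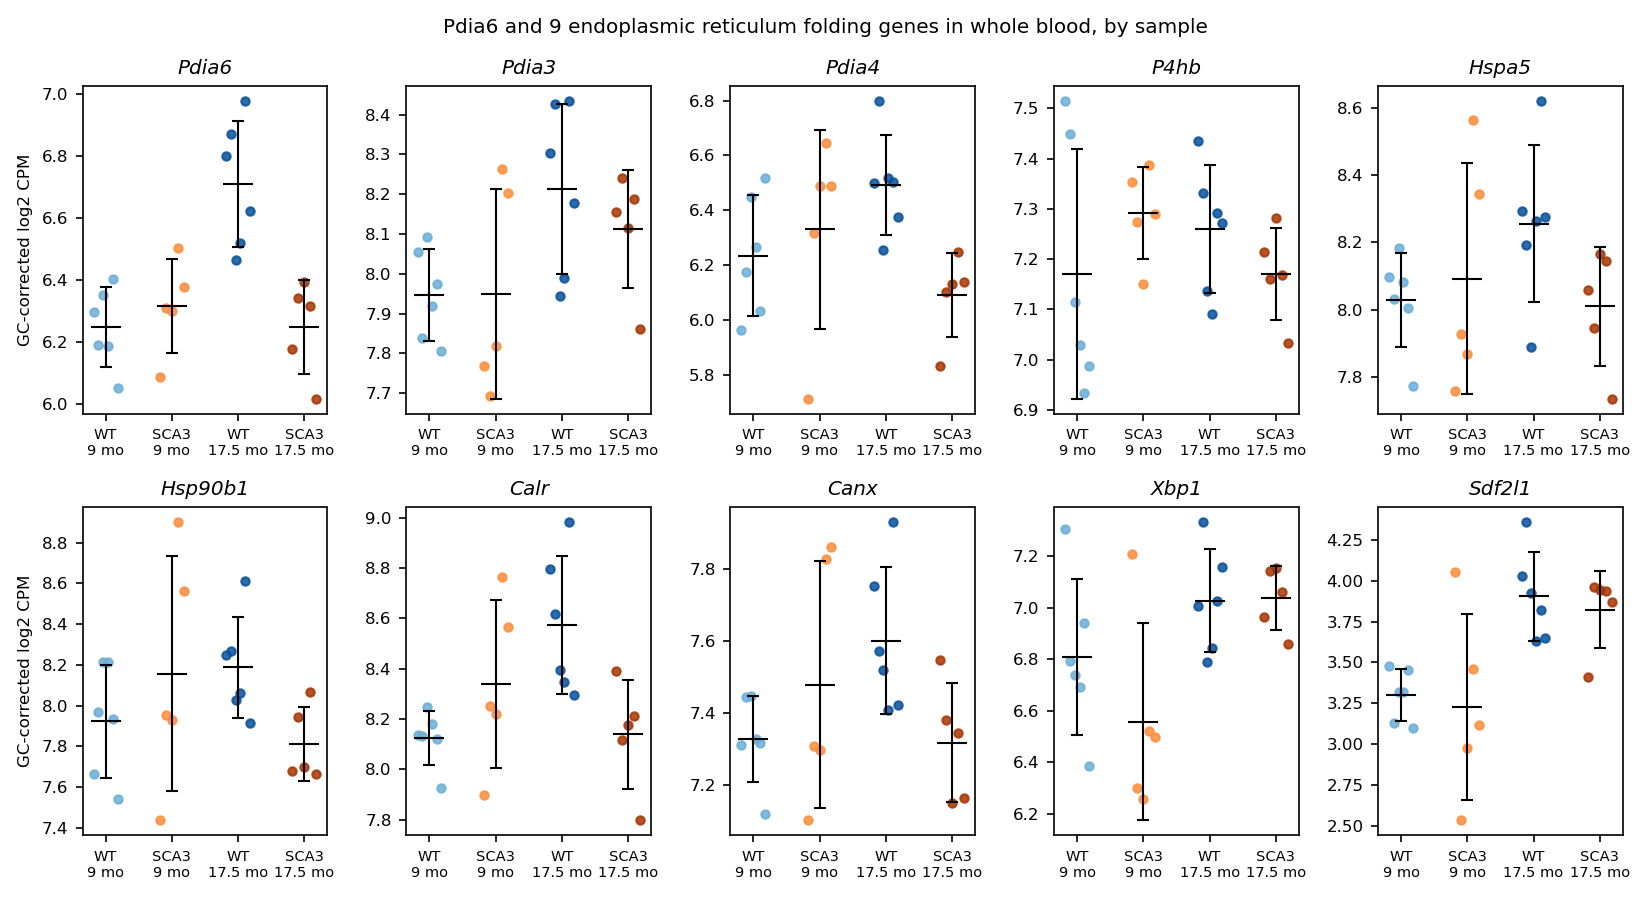
GC-corrected log2 CPM of the 10 genes (1 panel each, with its own y axis) in the 22 samples, by genotype and age. Points are samples, and black lines the group mean ± SD (n = 6, 5, 6 and 5 from left to right). Pdia6 lies at 6.02 to 6.39 in SCA3 and 6.47 to 6.98 in wild-type mice at 17.5 months, and the Xbp1 groups overlap.

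In this comparison 8 of the 9 partners had a mean difference below 0, beside 55.2% of all genes, and the median difference was -0.25 for the partners and -0.03 for all genes. At an adjusted p under 0.05, 35 genes were called (0.355%), none of them a partner. Pdia6 itself was under that threshold, from which nothing is read since it was chosen there. An unadjusted p under 0.05 was reached by 3 of the 9 partners (Pdia4, Calr and Canx, each lower), beside 18.7% of all genes in either direction and 11.5% with a lower level. On the corrected scale, groups did not overlap for Pdia4 alone among the partners, beside 2.07% of all genes with SCA3 lower.

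The lower levels of several partners at 17.5 months were present only after the correction for GC content. Without it, the difference was 0.05 for Hsp90b1, 0.09 for Canx, 0.01 for Hspa5 and 0.09 for Pdia3, each above 0 where the corrected value was below. These are the 4 members with the lowest GC content, 42.1% for Hsp90b1, 42.2% for Canx, 45.6% for Hspa5 and 46.9% for Pdia3 in the longest transcript. The members nearer the middle of the table in GC content kept their direction, with -0.43 for Pdia6 (48.9% GC), -0.30 for Pdia4 (47.6% GC) and -0.44 for Calr. Those richest in GC moved the other way, to -0.29 for P4hb, -0.14 for Xbp1 and -0.44 for Sdf2l1, which was then the lowest value of the 10 (adjusted p = 0.097). Uncorrected, Calr reached an adjusted p of 0.047, in a comparison in which 21.1% of all genes did. Pdia6, Pdia4, Calr, P4hb and Sdf2l1 thus had lower means in SCA3 mice on both scales. With the correction the difference was -0.41 for Pdia4, and -0.09 for each of P4hb and Sdf2l1, smaller than its error. For Pdia3, Hspa5, Hsp90b1, Canx and Xbp1 the direction depended on the correction.

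**Figure D2:**
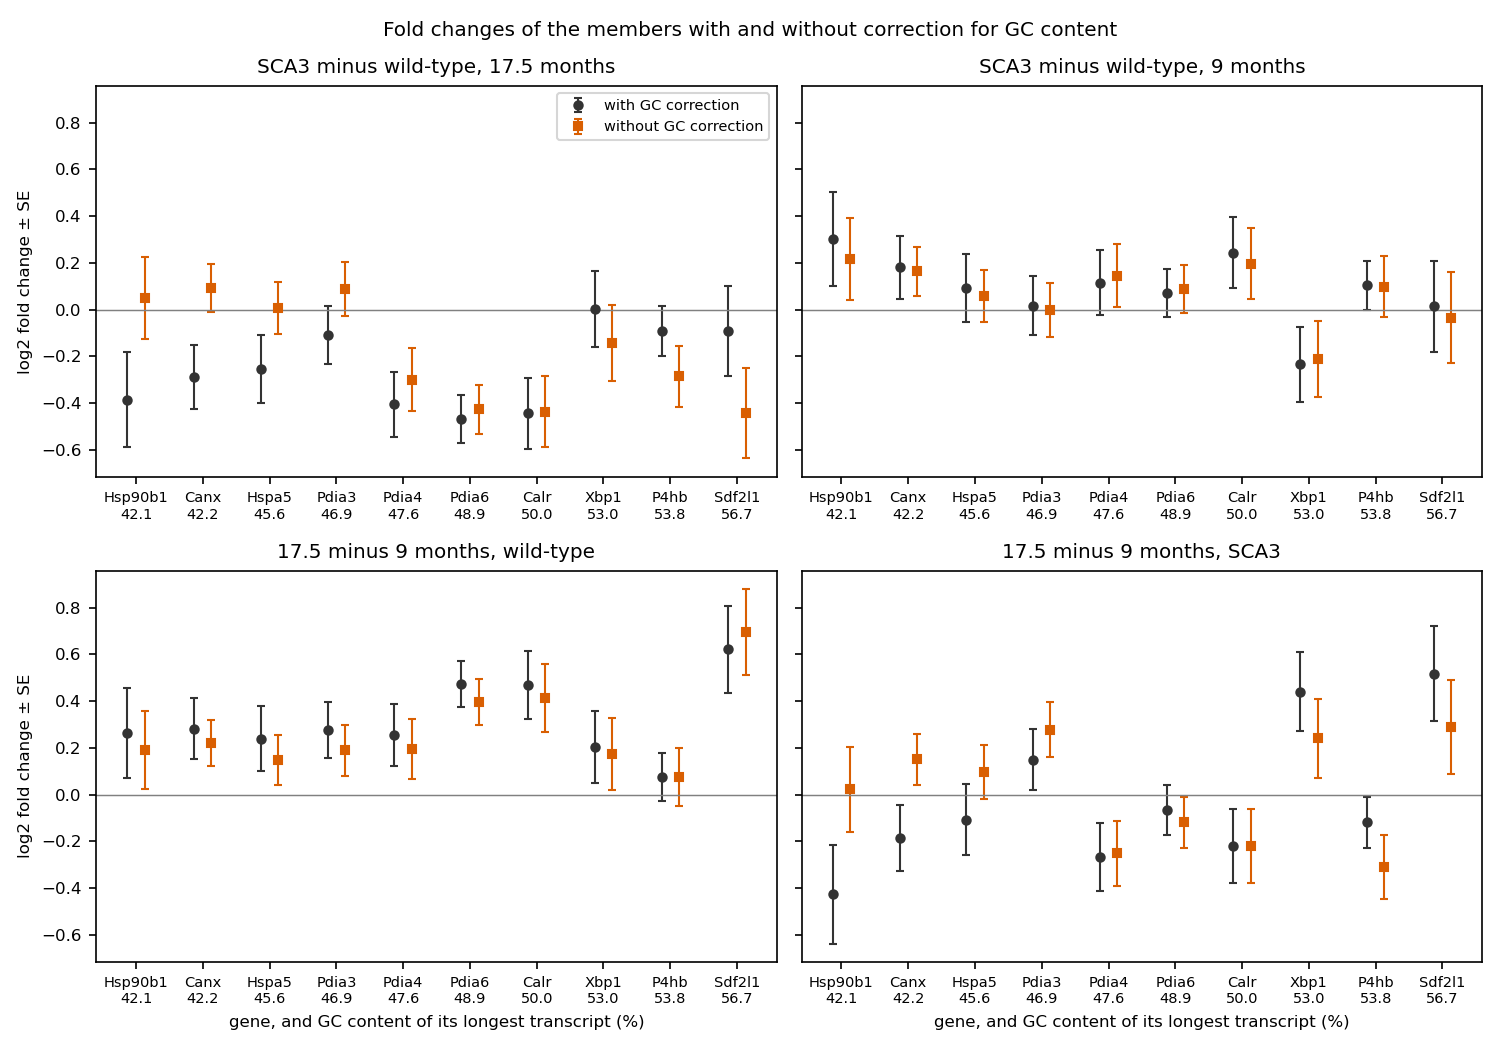
Log2 fold change ± SE of each gene, ordered by the GC content of its longest transcript, with (circles) and without (squares) GC correction, in 4 comparisons. At 17.5 months the circles of Hsp90b1, Canx, Hspa5 and Pdia3 lie below 0 and the squares above it, while for Pdia6 and Calr the values are nearly the same (-0.47 and -0.43, -0.44 and -0.44). In wild-type mice every value for age is above 0.

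At 9 months the direction was not that of 17.5 months. Pdia6, whose 9-month samples had no part in its choice, had 6.09, 6.31, 6.30, 6.50 and 6.38 in SCA3 mice and 6.05 at the lowest, 6.24 at the median and 6.40 at the highest in wild-type mice. The ranges lay over each other, and the difference of 0.07 ± 0.10 was smaller than its error (adjusted p = 0.919). With RIN as a covariate, over the 21 samples that had one, it was -0.02. Of the 9 partners 8 had a difference above 0, the largest being 0.30 ± 0.20 for Hsp90b1 and 0.24 ± 0.15 for Calr (adjusted p = 0.794 and 0.784), and the median was 0.10 beside 0.01 for all genes, of which 51.6% were above 0.

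A pair of animals stood highest at 9 months. SCA3 mice 14 and 15 had the 2 highest Hsp90b1 levels of the age, 8.90 and 8.56, with 7.44, 7.95 and 7.93 in the other SCA3 mice and 7.54 to 8.21 in wild-type mice. The same 2 mice were the highest of their group for Calr, Canx, Hspa5, Pdia3 and Pdia6. Without mouse 14 the difference was 0.08 for Hsp90b1 and 0.13 for Calr. Mouse 14 had the lowest RIN of the group, 6.1, and mouse 15 no recorded RIN. With RIN as a covariate, a fit that drops mouse 15 at 9 months, the difference was 0.0038 for Hsp90b1 and 0.12 for Calr. Xbp1 ran the other way, with 6.30, 6.26, 6.52 and 6.50 in 4 SCA3 mice and 7.21 in mouse 9, against 6.39 to 7.30 in wild-type mice (difference -0.23 ± 0.16, adjusted p = 0.804). No gene of the table was called at this age by the quasi-likelihood test, the likelihood ratio test or DESeq2. By the quasi-likelihood test 6.54% of all genes had an unadjusted p under 0.05, and of the 10 members none did.

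In wild-type mice all 9 partners were higher at 17.5 than at 9 months, beside 57.3% of all genes. Their median difference was 0.26, and that of all genes 0.03. Pdia6 went from 6.25 ± 0.13 to 6.71 ± 0.20 (SD, n = 6 each), a description of 0.47 ± 0.10 in log2 level, and its lowest value at 17.5 months, 6.47, was above its highest at 9 months, 6.40. Calr had the same size of difference, 0.47 ± 0.15 (adjusted p = 0.141), with 7.93 to 8.25 at 9 months and 8.30 to 8.98 at 17.5 months, which did not overlap. Sdf2l1 had the largest difference of the 10, 0.62 ± 0.19 (adjusted p = 0.127), from 3.10 to 3.48 at 9 months to 3.63 to 4.36 at 17.5 months, also without overlap. Without GC correction the ages still did not overlap for Sdf2l1 (3.01 to 3.55 and 3.65 to 4.41). They then overlapped for Calr (7.79 to 8.30 and 7.98 to 8.85) and Pdia6 (5.99 to 6.46 and 6.45 to 6.89). The remaining partners differed by 0.07 (P4hb) to 0.28 (Canx), with adjusted p from 0.318 to 0.806.

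Of the 9 partners 4 had an unadjusted p under 0.05 for age in wild-type mice, all of them higher (Sdf2l1, Calr, Pdia3 and Canx), beside 7.38% of all genes that were higher. None of the partners was called, with 0.497% of all genes called. On the corrected scale, groups did not overlap for Calr and Sdf2l1 among the partners, beside 0.487% of all genes higher without overlap. When each mouse was held as a block, so that the 5 mice sampled at both ages carried the comparison, Sdf2l1 was called at 0.59 (adjusted p = 0.041), with 1.75% of all genes called. The difference of all 10 members was above 0 also without the GC correction and with RIN as a covariate. With RIN it was larger for P4hb (0.10) and Xbp1 (0.26). It was smaller for the other members, among them Hsp90b1 (0.07), Pdia4 (0.09) and Hspa5 (0.13).

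In SCA3 mice the same step in age divided the partners, with 6 of 9 differences below 0 beside 51.5% of all genes. Xbp1 went from 6.56 ± 0.38 to 7.04 ± 0.12 and Sdf2l1 from 3.23 ± 0.57 to 3.82 ± 0.23 (SD, n = 5 each), differences of 0.44 ± 0.17 and 0.52 ± 0.20 (adjusted p = 0.093 and 0.098). Pdia6 differed by -0.07 ± 0.11, with 6.09 to 6.50 at 9 months and 6.02 to 6.39 at 17.5 months. Hsp90b1 had the largest difference below 0, -0.43 ± 0.21 (adjusted p = 0.188), which was -0.21 without the 9-month library of mouse 14. It was followed by Pdia4 with -0.27 ± 0.14 (adjusted p = 0.23) and Calr with -0.22 ± 0.16 (adjusted p = 0.381). Xbp1 and Sdf2l1 thus had higher means at 17.5 months in both genotypes, and without GC correction too (0.24 and 0.29 in SCA3 mice). For Hsp90b1, Canx and Hspa5 the direction in SCA3 mice turned without the correction, to 0.02, 0.15 and 0.10.

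None of the 10 members was called for age in SCA3 mice, while 10.5% of all genes were. The calls depended on the 9-month library of SCA3 mouse 9, which had the lowest Pdia6, Pdia4, Hspa5, Hsp90b1, Calr and Canx of its group and the highest Xbp1 and Sdf2l1 (7.21 and 4.05). Without it, 21.5% of all genes and 4 members were called, Xbp1 (0.64, adjusted p = 0.005) and Sdf2l1 (0.78, adjusted p = 0.0046) higher and Pdia4 (-0.39, adjusted p = 0.027) and Hsp90b1 (-0.57, adjusted p = 0.04) lower. With the mouse as a block, which rests on 2 SCA3 mice, Hsp90b1 was called at -0.86 (adjusted p = 0.048), with 6.84% of all genes called.

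The mice sampled at both ages showed the 2 genotypes apart for most of the members. Pdia6 was higher at 17.5 months in 5 of 5 wild-type mice, by 0.57 in mice 2, 6 and 7, 0.28 in mouse 3 and 0.33 in mouse 5, and lower in both SCA3 mice, with changes of -0.19 in mouse 14 and -0.36 in mouse 15. Calr, Canx and Pdia3 were also higher in 5 of 5 wild-type and lower in 2 of 2 SCA3 mice. For Hspa5, Hsp90b1 and Pdia4 the count was 4 of 5 and 2 of 2, and for P4hb 3 of 5 and 2 of 2. Sdf2l1 was higher in all 7 mice, by 0.31 to 0.88, and Xbp1 in 6 of them, with -0.0020 in wild-type mouse 3. Both SCA3 mice, 14 and 15, were those with the highest 9-month levels of their group for Pdia6, Calr, Canx, Hspa5, Hsp90b1 and Pdia3. These counts over mice are a description. Without GC correction Pdia6 and Calr kept them. Pdia3 was then higher in both SCA3 mice (0.03 and 0.25), Canx and Hspa5 were higher in mouse 14 (0.03 and 0.0084), Hspa5 was higher in 5 of 5 wild-type mice, and Xbp1 was higher in 2 of 5 wild-type mice. Sdf2l1 remained higher in all 7 mice, by 0.11 to 0.78.

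**Figure D3:**
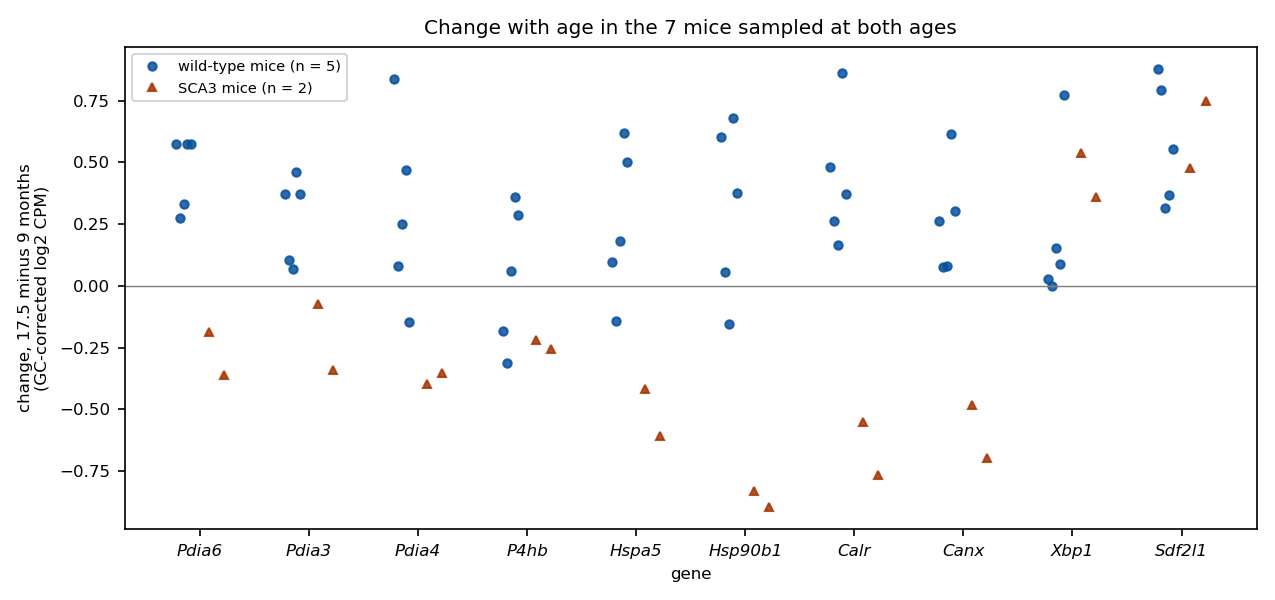
Change in GC-corrected log2 CPM from 9 to 17.5 months in each mouse sampled at both ages (circles, 5 wild-type mice; triangles, 2 SCA3 mice). For Pdia6, Calr, Canx and Pdia3 all circles lie above 0 and both triangles below, while for Sdf2l1 all 7 points lie between 0.31 and 0.88. Without GC correction, which is not drawn, Pdia3 was higher in both SCA3 mice and Canx in mouse 14.

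The change of the SCA3 effect between the ages was below 0 for 8 of the 9 partners, beside 54.9% of all genes. Xbp1 was the exception, at 0.24 ± 0.23 (adjusted p = 0.638). The change was -0.54 ± 0.15 for Pdia6, as a description. It was -0.69 ± 0.22 for Calr (adjusted p = 0.218) and -0.69 ± 0.29 for Hsp90b1 (adjusted p = 0.27). Pdia4 had -0.52 ± 0.20 (adjusted p = 0.246) and Canx -0.47 ± 0.19 (adjusted p = 0.267). Those 4 partners had an unadjusted p under 0.05, beside 9.63% of all genes with a value below 0. Without GC correction Hsp90b1 had -0.17 and Canx -0.07 (unadjusted p = 0.502 and 0.637), while Calr had -0.63 and Pdia4 -0.44 (unadjusted p = 0.0078 and 0.028). No gene of the table was called by the quasi-likelihood or the likelihood ratio test, and DESeq2, without GC correction, called 5.5% of all genes and none of the partners. Without the library of SCA3 mouse 9, 4.09% of all genes were called, Pdia4 (-0.65, adjusted p = 0.036) and Calr (-0.78, adjusted p = 0.039) among them.

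Members with and without the stress element in the promoter are set side by side as a description. The 5 members with the element had differences of -0.47 to -0.25 between SCA3 and wild-type mice at that age, with a median of -0.39, and the 5 without it -0.41 to 0.00, with a median of -0.09. For Hspa5, Hsp90b1 and Canx the sign turned without the GC correction. The 8 other genes of the table with the element (Adcy3, Alg12, Creld2, Dnajc3, Ero1lb, Hnrnpa3, Pan2 and Syvn1, chosen for the element) had -0.40 to 0.14 and a median of -0.13. Ero1lb, an oxidase that recharges the isomerases, and Syvn1, a ubiquitin ligase of endoplasmic reticulum degradation, had -0.40 ± 0.16 and -0.32 ± 0.15 (adjusted p = 0.173 and 0.253), while Dnajc3, a co-chaperone of Hspa5, had 0.01 ± 0.07 (adjusted p = 0.937). In wild-type mice the 5 members with the element, Pdia6 included, and the 5 without it had similar differences for age, with medians of 0.28 and 0.25.

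Over the 22 samples, which come from 15 mice and share the libraries' GC dependence, the gene whose corrected level was most like that of Pdia6 was Calr (Pearson's r = 0.849), first of the 9849 other genes. It was followed by Rhoh, a GTPase of lymphocytes (0.843), Dnpep, an aminopeptidase (0.837), Rpn1, a subunit of the complex that attaches sugars in the endoplasmic reticulum (0.820), and Brd7, a bromodomain protein (0.811). Among the partners, Pdia3 had 0.763, Hspa5 0.743, Canx 0.695, Hsp90b1 0.625 and Pdia4 0.586, while Sdf2l1 (0.409), P4hb (0.332) and Xbp1 (0.316) were lower. The median over all genes was 0.07, and the 5th and 95th percentiles were -0.43 and 0.53. After the mean of each group was subtracted, Pdia3 (0.832) and Calr (0.785) stood first and second, and Pdia4 had 0.387, so that the likeness of Calr and Pdia3 was also present between mice of the same group. The order depended on the measure. By Spearman's rho Calr was 12th of all genes, and without GC correction it was 7th, with r = 0.808. Without the correction the 95th percentile of all genes was 0.60, and every other partner lay below it, with Hspa5 at 0.532, Pdia4 at 0.469, Hsp90b1 at 0.423, Pdia3 at 0.406 and Canx at 0.386.

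Among the members, Pdia6, Calr, Canx, Hspa5, Hsp90b1 and Pdia3 correlated with each other at 0.60 or more, and Xbp1 and Sdf2l1 most with each other. Calr and Canx had r = 0.926, Hsp90b1 and Canx 0.860, and Hspa5 and Calr 0.850. Xbp1 and Sdf2l1 had 0.806 with each other, and -0.01 to 0.16 for Sdf2l1 and -0.22 to 0.14 for Xbp1 with Hspa5, Hsp90b1, Calr and Canx. With Pdia3 and Pdia6 they had higher values, 0.55 and 0.41 for Sdf2l1 and 0.49 and 0.32 for Xbp1, so the sets were not separate. Counts per gene do not separate the spliced form of Xbp1, which encodes the active factor, from the unspliced form.

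**Figure D4:**
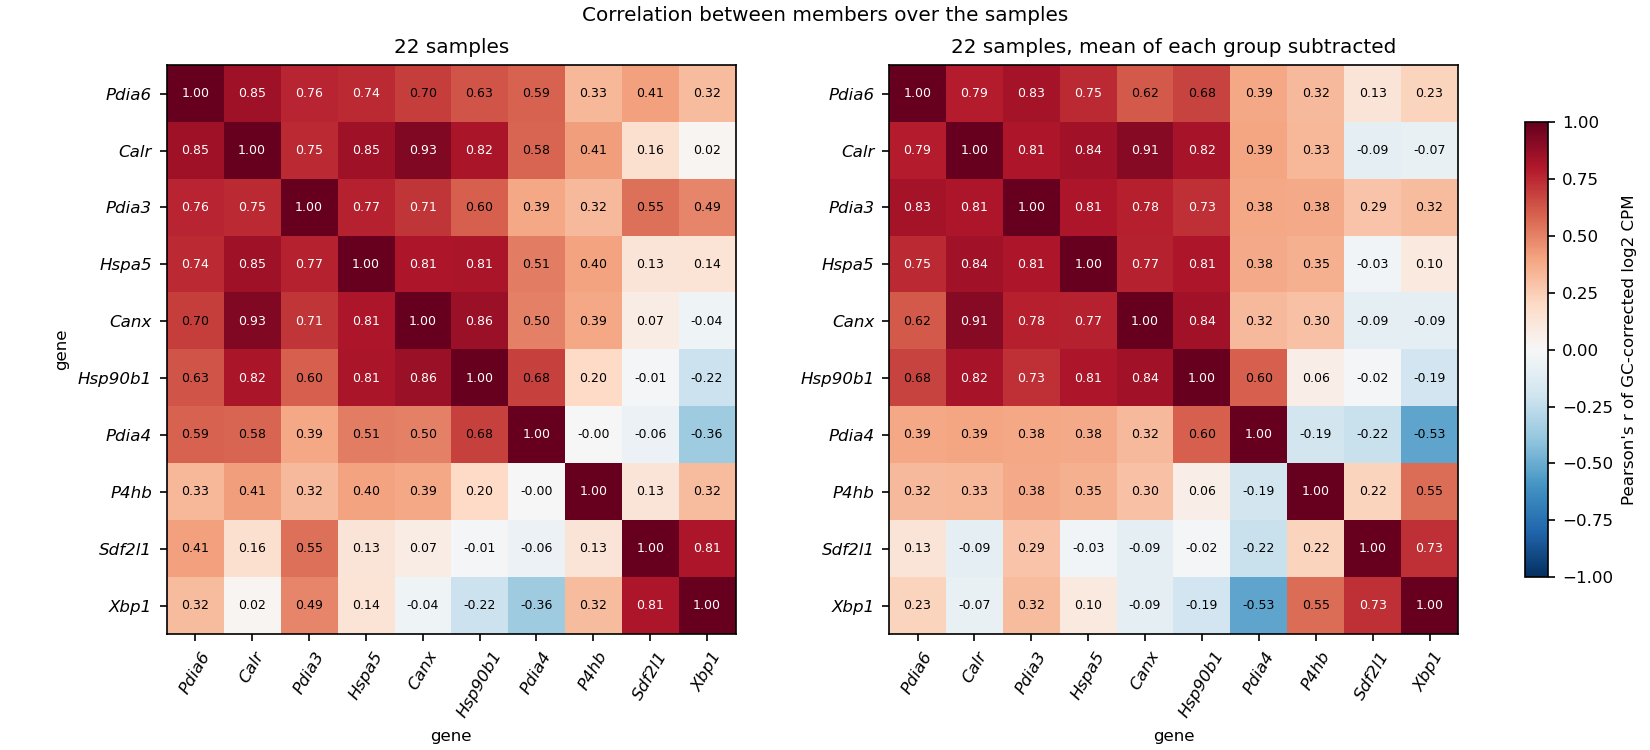
Pearson's r of GC-corrected log2 CPM between the 10 genes over the 22 samples (left) and after subtraction of the mean of each of the 4 groups (right). Pdia6, Calr, Pdia3, Hspa5, Canx and Hsp90b1 form a block of high values in both panels, and Sdf2l1 and Xbp1 pair with each other (0.81 and 0.73).

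The wider set of endoplasmic reticulum genes lay near all genes at 17.5 months. Of 82 listed genes 75 were in the table, and at 17.5 months 41 of them were lower and 34 higher in SCA3 mice, with a median of -0.02 beside -0.03 for all genes. None was called, and an unadjusted p under 0.05 was reached by 12 lower and 2 higher genes, beside 11.5% of all genes lower and 7.18% higher. The 3 with the smallest p were Spcs3, a subunit of the signal peptidase (-0.32 ± 0.09, adjusted p = 0.081), Atf4, the factor of the integrated stress response (0.53 ± 0.16, adjusted p = 0.093), and Hyou1, an Hsp70-like exchange factor of Hspa5 (-0.34 ± 0.10, adjusted p = 0.097). By role, 6 of 9 genes for glycoprotein folding and sorting were lower, with a median of -0.16, while the 15 other isomerases and oxidases had a median of 0.01, the 15 chaperones and co-chaperones -0.01 and the 14 translocation genes 0.02. Without GC correction 19 of the 75 were called, 10 higher and 9 lower, beside 21.1% of all genes.

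In the other comparisons the list as a whole was likewise close to all genes, though roles within it differed. At 9 months 12 of 14 translocation genes were lower in SCA3 mice (median -0.13). Higher were 8 of 9 genes for glycoprotein folding and sorting (median 0.07) and 10 of 13 for degradation (median 0.09). At 9 months 33 of the 75 were lower and 42 higher in SCA3 mice, and Ssr3, of the translocon-associated complex (-0.24 ± 0.08), Lman1, a cargo receptor for glycoproteins (0.21 ± 0.09), and Sdf2, the paralog of Sdf2l1 (-0.24 ± 0.10), had the smallest p, each with an adjusted p of 0.746. For age in wild-type mice 47 were higher, and the 3 with the smallest p were Tmx4, a membrane-bound isomerase (-0.30 ± 0.09, adjusted p = 0.117), Dnajc1, a co-chaperone (-0.25 ± 0.07, adjusted p = 0.121), and Fkbp2, a prolyl isomerase (0.42 ± 0.13, adjusted p = 0.134). For age in SCA3 mice 9 of the 75 were called, beside 10.5% of all genes. Fkbp2 (0.71 ± 0.14, adjusted p = 0.01), Sdf2 (0.40 ± 0.11, adjusted p = 0.022), Ssr4, Sec11c and Atf4 rose, and Lman1 (-0.43 ± 0.09, adjusted p = 0.01), Os9, Hyou1 and Ero1l fell. These calls depended on the setting. Of the 75, 0 were called with RIN as a covariate (0.294% of all genes), 4 with GC and length correction (3.48%), 13 without GC correction (19.4%) and 24 without the 9-month library of SCA3 mouse 9 (21.5%). Leaving out any other single SCA3 library except that of mouse 8 gave 2 to 3. Without GC correction Ero1l had -0.03 (adjusted p = 0.897), and Fkbp2, Sdf2, Lman1 and Atf4 were not called either. For the change of the SCA3 effect, Hyou1 (-0.52 ± 0.15), Lman1 (-0.41 ± 0.12) and Syvn1 (-0.60 ± 0.21) had the smallest p, with adjusted p of 0.218, 0.218 and 0.231.

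**Figure D5:**
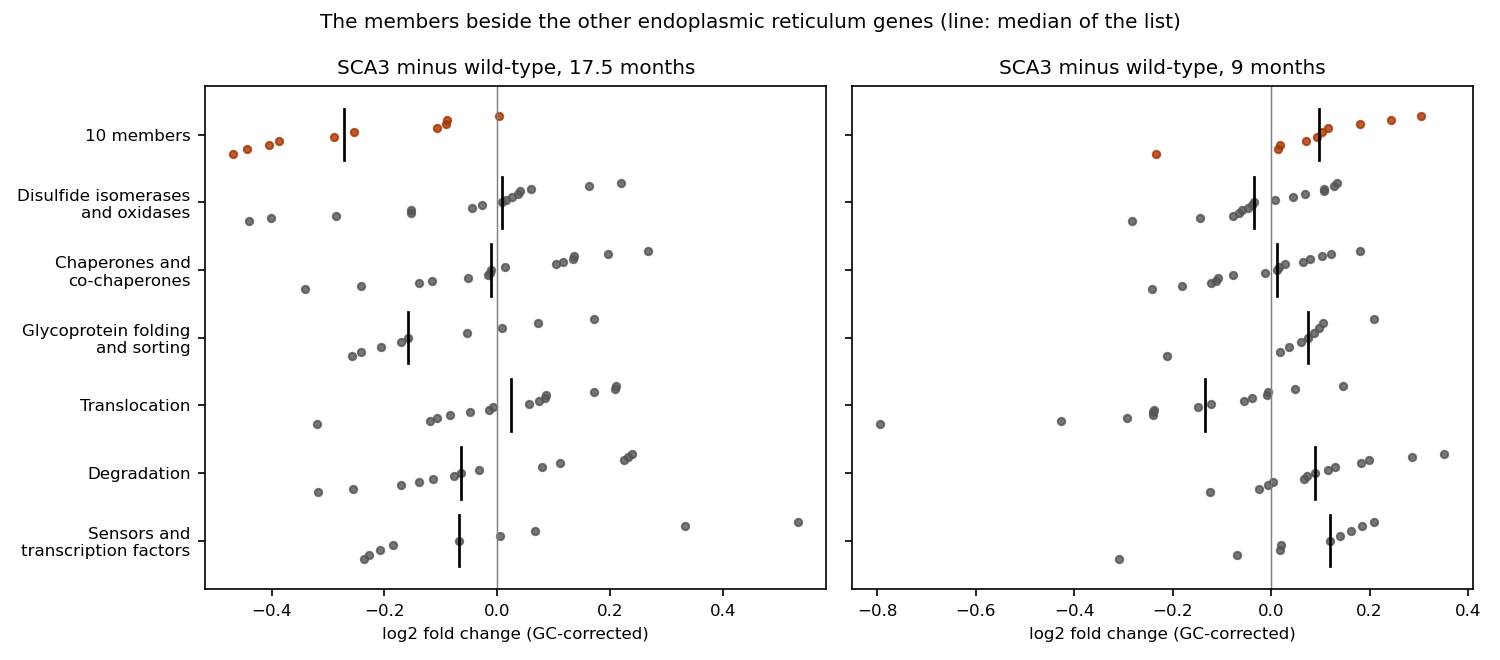
Log2 fold change (GC-corrected) of SCA3 against wild-type mice at 17.5 months (left) and 9 months (right) for the 10 members and for 75 other endoplasmic reticulum genes in 6 lists. Points are genes and the black line is the median of each list. At 17.5 months it is -0.27 for the members (-0.25 without Pdia6, which was chosen there) and between -0.16 and 0.02 for the other lists. Without GC correction 4 of the 9 members below 0 at 17.5 months lie above it.

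Markers of blood cell types were set beside these values, as the mean corrected log2 level of each list. The B cell markers (6 of 6 in the table) had 8.70 ± 0.40 in wild-type and 8.29 ± 0.31 in SCA3 mice at 17.5 months (SD, n = 6 and 5), and all 6 had lower means in SCA3 mice. The difference of -0.41 had a p of 0.093 in a two-sided exact permutation test, and 0.39 after adjustment over the 32 marker comparisons. Their summed level was 2863 to 6806 CPM in wild-type and 2606 to 4958 CPM in SCA3 mice. In wild-type mice the B cell score was 0.58 higher at 17.5 than at 9 months, where it was 8.13 ± 0.34 with a summed level of 2335 to 4708 CPM (exact permutation p = 0.026, adjusted p = 0.277), in the direction of Pdia6. Both comparisons share the 6 wild-type samples of 17.5 months. The permutation tests for age took the samples of both ages as independent, though 5 wild-type mice gave both. The part of the B cell markers in the differences of the members was not tested. T cell markers (6 of 6 in the table) ran opposite to Pdia6, with 5.82 ± 0.32 at 17.5 and 6.48 ± 0.44 at 9 months in wild-type mice (246 to 470 and 372 to 711 CPM in sum, exact permutation p = 0.024, adjusted p = 0.277). At 17.5 months their score was 0.36 higher in SCA3 mice (exact permutation p = 0.093), and 0.61 higher by the median of the markers (exact permutation p = 0.0065, not adjusted). Of the 6 markers, Cd4 alone went the other way at that age, with 4.14 in SCA3 and 4.60 in wild-type mice. The part of the T cell markers was not tested.

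Neutrophil markers (6 of 8 in the table) ran opposite to Pdia6 at 17.5 months. They had 9.70 ± 0.53 in SCA3 and 8.99 ± 0.25 in wild-type mice, with 5957 to 16472 CPM and 3888 to 6872 CPM in sum (exact permutation p = 0.017, adjusted p = 0.277), and all 6 were higher in SCA3 mice. The part of the neutrophil markers was not tested either. Plasma cell markers (5 of 6 in the table, none at 0 in any sample) had 4.64 ± 0.27 in SCA3 and 4.61 ± 0.27 in wild-type mice at 17.5 months, a difference of 0.03 (exact permutation p = 0.833), with 207 to 370 and 145 to 412 CPM in sum. SCA3 mouse 13 was at 5.10 and the other SCA3 mice at 4.42 to 4.61. The part of these markers was not tested. Of the 32 comparisons of marker lists 3 had an unadjusted p under 0.05 and none after adjustment.

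The counting used no strand, so reads of overlapping genes on the other strand cannot be told apart from those of the members. Pdia6 (chr12:17266545-17284770, + strand, GRCm38) shares 50 of its 3745 exon bases with Atp6v1c2, a subunit of the vacuolar proton pump on the other strand. Hsp90b1 (chr10:86690209-86705509, - strand) shares 415 of 4032 exon bases with 1810014B01Rik. Neither of these neighbours was among the 9850 genes analysed, so no level of theirs stands beside the members.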

How the data were processed

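Whole-blood RNA of 22 samples was depleted of globin transcripts and sequenced as polyadenylated, non-stranded libraries. Per the labels and the study's methods, the authors trimmed reads (Cutadapt 1.10), aligned them to GRCm38 with STAR 2.3.0e, kept unique alignments, counted them per RefSeq gene without strand (HTSeq 0.6.1) and dropped genes of low average CPM (the lowest mean in the table is 4.07). The deposited values are raw counts of 9850 genes.

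From these counts, GC content was taken from the longest GENCODE transcript (99.6% of genes matched), and a GC correction after the CQN method was rewritten here (median regression on a spline with 5 knots, genes with a mean of at least 50 counts, then quantile normalization, quantreg 6.1). Group means were compared over all 22 samples with edgeR 4.0.16 (quasi-likelihood test, robust, R 4.3.3), adjusted after Benjamini and Hochberg, and called at an adjusted p under 0.05. The study's methods used the likelihood ratio test, run here as an alternative beside no GC correction, GC and length correction, DESeq2 1.42.0, a filter of 10 counts, RIN as covariate, leaving out each sample, and the mouse as block. The fits were tested on simulated data.

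The members and gene lists were chosen with earlier results of these data known. Genes were named by rule: the members, the 3 genes of the endoplasmic reticulum list with the smallest p in each comparison, the 5 genes most like Pdia6 by Pearson's r, and Atp6v1c2. Genes called from the list, those with the promoter element and the marker lists are named beyond that rule. Group scores of markers were compared by exact permutation tests (SciPy 1.17.1). B cell, plasma cell, T cell, NK cell, neutrophil, monocyte, erythroid and platelet lists were scored (48 of 52 markers in the table). For NK cell, monocyte, erythroid and platelet markers the adjusted p was 0.39 to 0.998 in every comparison.

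The same animal links samples of the 2 ages. Deviations from the group means correlated with a mean r of 0.341 within the 5 wild-type mice sampled at both ages (-0.226 to 0.522, other pairs -0.053) and 0.036 within the 2 SCA3 mice (other pairs -0.005). The fit without a block treats these samples as independent, and so do the permutation tests of marker scores for age. No replicate pair was identical. The p-values of fits without a block measure the spread between mice of a group, taken over all groups. Those of the fit with the mouse as block measure the spread within mice.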

Additional observations from a re-analysis of the deposited data

Results flagged for a closer look

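Over 72 sets of values (each member and marker list in each group), 7 held a sample far from the others of its group by Dixon's gap criterion, where chance gives about 1 in 20, or 3.6. Xbp1 was 7.21 in SCA3 mouse 9 at 9 months, with 6.26 to 6.52 in the other 4. Sdf2l1 was 3.41 in SCA3 mouse 8 at 17.5 months, with 3.87 to 3.96 in the others. The erythroid marker score was 9.13 in SCA3 mouse 14 at 9 months (others 10.03 to 10.38). The plasma cell score was 5.10 in SCA3 mouse 13 at 17.5 months (others 4.42 to 4.61), the same library in which the platelet score was 8.22 (others 9.28 to 9.63). The platelet score was also 8.10 in wild-type mouse 2 at 9 months (others 8.93 to 9.37) and 9.74 in wild-type mouse 3 at 17.5 months (others 8.62 to 9.02).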

How the results depend on the processing

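The number of genes called depended on the GC correction, the test and single libraries, and the cause was not tested. For SCA3 against wild-type mice at 17.5 months, 35 genes were called with GC correction and the quasi-likelihood test, 2080 without GC correction, 208 by the likelihood ratio test, 1 with RIN as covariate and 2680 by DESeq2 without GC correction. The members called there were Pdia6 alone, 2 without GC correction and 2 by DESeq2 (Pdia6 and Calr), and 0 with RIN or with genes of at least 10 counts in every sample. With RIN most members had a larger difference there than in the main fit, among them Pdia4 (-0.56), Hsp90b1 (-0.55) and Calr (-0.50). That of P4hb was smaller (-0.07), and Xbp1 stayed above 0 (0.06). For age in wild-type mice, 49 genes were called, 168 by the likelihood ratio test, 3 with RIN, 231 by DESeq2 and 172 with the mouse as block. Pdia6 alone was called among the members, 0 without GC correction, with GC and length correction or with RIN, and 2 (Pdia6 and Sdf2l1) by DESeq2 and with the block. For age in SCA3 mice, 1038 genes were called, 1912 without GC correction, 343 with GC and length correction, 29 with RIN, 2419 by DESeq2 and 674 with the block, which called 1 member, Hsp90b1, in place of 0. For the change of the SCA3 effect, 0 genes were called, and by DESeq2 542 with 1 member (Pdia6). At 9 months every setting called 0 genes. The block changed no other call of a member. Nothing is read from the calls of Pdia6, which was chosen on samples of each comparison in which it was called.

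Leaving out 1 sample at a time gave 0 to 240 genes called at 17.5 months (0 without wild-type mouse 6, 240 without SCA3 mouse 8) and 0 to 1 members. It gave 4 to 291 genes for age in wild-type mice (4 without the 17.5-month and 291 without the 9-month library of mouse 7) and 0 to 1 members. For age in SCA3 mice it gave 274 to 2114 genes (274 without the 9-month library of mouse 10, 2114 without that of mouse 9) and 0 to 4 members. For the change of the effect it gave 0 to 403 genes and 0 to 3 members, the highest again without mouse 9.

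Some differences of members changed sign. At 17.5 months Pdia3 was 0.088 without GC correction and 0.093 by DESeq2, Hspa5 0.0067 and 0.013, Hsp90b1 0.049 and 0.054, Canx 0.093 and 0.098, and Xbp1 -0.14 in both and -0.045 with GC and length correction. At 9 months Pdia3 was -0.00080 without GC correction and -0.0070 by DESeq2, and Sdf2l1 -0.035 and -0.040. With RIN, Pdia6 was -0.021, Pdia3 -0.10, Pdia4 -0.074 and Hspa5 -0.076 at that age. For age in SCA3 mice Hspa5 was 0.096 without GC correction and 0.099 by DESeq2, Hsp90b1 0.023 and 0.027, Canx 0.15 in both, and Pdia3 -0.21 with the block. For the change of the effect Pdia3 was 0.089 without GC correction and 0.0997 by DESeq2, and Sdf2l1 0.025 with the block.

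With 1 sample left out, signs turned for Hspa5 (-0.19 to 0.026 for age in SCA3 mice, -0.042 to 0.17 at 9 months), Pdia3 (-0.066 to 0.079 at 9 months), Sdf2l1 (-0.14 to 0.014 at 17.5 months, -0.24 to 0.16 at 9 months, -0.25 to 0.15 for the change of the effect) and Xbp1 (-0.042 to 0.069 at 17.5 months). By the median in place of the mean of the markers, the B cell score differed by 0.20 and the T cell score by 0.024 for age in SCA3 mice, and at 9 months the neutrophil score by -0.090, the platelet score by -0.16 and the T cell score by 0.0095, each with the other sign.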
